A study of Rattus norvegicus with 12 samples.

Results

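The genes described here copy DNA and carry cells through division: the replication fork and its licensing factors, enzymes that supply deoxynucleotides, the mitotic kinases, cyclins and checkpoint proteins, the proteins of the spindle and the dividing chromosomes, the cyclins and kinases of G1, and the inhibitors that hold the cycle back. A list of 56 such genes was matched by symbol to probe sets that the platform annotation assigns to a single gene, and the probe set with the highest mean signal stood for each gene. Of the 56 genes, 48 had such a probe set among the 15923 of the array. Of these 48, 44 passed the filter on low signal (above the 40th percentile of the array on at least 3 arrays) and were tested, among 10527 tested probe sets and 7719 named genes in all. The other 4, Tyms, Bub1b, Kif20a and Kif2c, were too dim to be tested, and for 8 genes (Gmnn, Rrm2, Ccna2, Kif11, Prc1, Nusap1, Hmgb2 and Cdk2) there was no probe set with a single symbol.

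Total RNA of the rat ventricle was hybridised to 12 arrays, 1 for each rat, in 4 groups of 3 rats. In the groups called IR, the left anterior descending coronary artery (LAD), which feeds the front wall of the left ventricle, had been closed for 30 min and then reopened, and the ventricle was taken after 7 d (rats 44, 47 and 48) or 2 d (rats 69, 73 and 76) of reperfusion. Sham rats without the occlusion were taken at 7 d (rats 80, 81 and 82) and at 2 d (rats 71, 72 and 74). The sources used here give no strain, sex, age or part of the ventricle, nor what the rat numbers stand for.

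Cells commit to division in G1, when D cyclins with Cdk4 release E2F factors from the retinoblastoma protein, and E2F factors then switch on the replication genes. Later, the genes of mitosis are switched on together, largely through CCAAT boxes bound by NF-Y and through CHR elements, short sequences close to the transcription start that the DREAM complex uses to silence them in resting cells. Most cardiomyocytes of the adult rat have left the cycle, whereas macrophages, fibroblasts and endothelial cells divide in the healing infarct. In RNA of whole tissue, fewer cells of a type and less RNA per cell cannot be told apart.

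Promoter sequences were read for the genes whose changes are described below, since replication and mitotic genes are known to be switched on through different elements. RefSeq's table for assembly GRCr8 held a promoter for 42 of the 48 genes on the array, and the 250 bases before each annotated start were searched on both strands. The last 150 of these bases are shown for 6 genes, 5′ to 3′ in the direction of the gene, with matches in capitals. The licensing genes Mcm2 and Mcm6 show E2F-type matches (TTTCGCGC, TTTGGCGC or TTTCCCGC; in both promoters the forward and the reverse match share 4 bases), and Mcm6 also has CCAAT. Cdca3, Kif22, Cks2 and Pttg1 are mitotic genes and show CCAAT, the core of the NF-Y box, or a CHR. A CCAAT on the reverse strand reads as ATTGG. The letters searched for the CHR were TTTGAA and, as a second form, TTCGAA. On the reverse strand TTTGAA reads as TTCAAA. Mcm2 also held 2 CHR matches, 215 and 175 bases before the start, outside the stretch shown. Not every gene held a match: Prim1, a replication gene described below, had none of any kind. The windows are chr4:122918095-122918244 (minus strand) for Mcm2, chr13:42404353-42404502 (minus strand) for Mcm6, chr4:159321053-159321202 (plus strand) for Cdca3, chr1:191080879-191081028 (minus strand) for Kif22, chr17:13727520-13727669 (minus strand) for Cks2 and chr10:28406327-28406476 (minus strand) for Pttg1.
Mcm2: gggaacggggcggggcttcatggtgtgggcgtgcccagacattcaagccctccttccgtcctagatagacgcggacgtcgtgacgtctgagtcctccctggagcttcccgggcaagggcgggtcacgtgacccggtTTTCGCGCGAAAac
Mcm6: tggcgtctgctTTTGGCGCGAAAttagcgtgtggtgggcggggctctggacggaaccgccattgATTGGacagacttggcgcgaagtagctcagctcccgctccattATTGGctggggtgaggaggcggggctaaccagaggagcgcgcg
Cdca3: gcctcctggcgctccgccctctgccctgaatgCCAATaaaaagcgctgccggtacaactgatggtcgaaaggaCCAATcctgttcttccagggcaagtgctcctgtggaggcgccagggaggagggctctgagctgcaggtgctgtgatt
Kif22: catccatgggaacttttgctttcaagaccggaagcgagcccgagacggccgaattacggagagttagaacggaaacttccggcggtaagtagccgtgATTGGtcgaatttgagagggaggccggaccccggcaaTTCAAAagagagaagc
Cks2: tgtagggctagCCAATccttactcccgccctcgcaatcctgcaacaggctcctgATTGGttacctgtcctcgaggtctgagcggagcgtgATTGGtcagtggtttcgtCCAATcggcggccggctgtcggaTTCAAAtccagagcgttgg
Pttg1: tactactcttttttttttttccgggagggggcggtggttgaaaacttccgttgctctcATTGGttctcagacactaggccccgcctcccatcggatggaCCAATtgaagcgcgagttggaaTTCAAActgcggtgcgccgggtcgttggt

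Matches to E2F-type letters were found in 16.7% of the 42 promoters, against 2.55% of the 6444 promoters of genes with a tested probe set and 1.45% of all 27457 promoters of the table. Among the replication genes, 4 of 10 promoters held one, against 1 of 13 for the genes of mitotic entry and anaphase. CCAAT stood in 66.7% of the 42 promoters and in 36.1% of the 6444. The mitotic genes held it in 11 of 13 promoters and the spindle and chromosome genes in 7 of 8. CHR letters stood in 42.9% of the 42 promoters, against 11.8% of the 6444, with 9 of 13 for the mitotic genes and 2 of 10 for the replication genes. Within the last 60 bases before the start, a window chosen after the matches were seen, 8 of 13 mitotic promoters and 0 of 10 replication promoters held CHR letters, against 1.82% of the 6444. A match is a run of letters, not a bound site. Among genes that rose with IR in the average of both days (15 with a promoter), 7 held CHR letters and 3 E2F-type letters. Among tested genes that did not pass (23 with a promoter), 10 held CHR letters and 3 E2F-type letters.

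**Figure D1:**
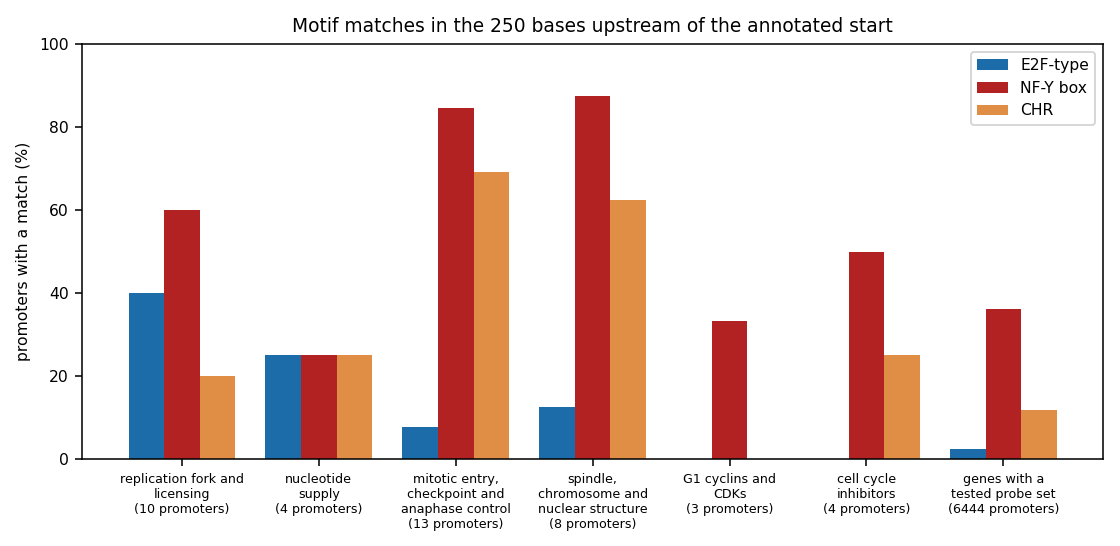
Share of promoters (vertical axis, percent) with at least 1 match to E2F-type, CCAAT (NF-Y box) or CHR letters in the 250 bases before the annotated start, for the gene classes and, at the right, for the 6444 genes with a tested probe set. E2F-type matches are most frequent in the replication class (4 of 10 promoters), and CCAAT and CHR matches in the mitotic (11 and 9 of 13) and spindle (7 and 5 of 8) classes.

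All levels below are MAS5 signals, a linear intensity per probe set that the authors scaled to the same trimmed mean on each array. Changes are differences of log2(signal + 195), which understates the change of dim genes, with limma's moderated standard error (SE) and a p adjusted over all 10527 probe sets. Folds come from these changes, so they are ratios of signal + 195 and not of the signals printed. An adjusted p under 0.05 counts as a call.

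Averaged over both days, 18 of the 44 tested genes rose in IR ventricles and none fell, where 12.4% of all tested probe sets rose and 10.5% fell. The genes that rose came from every class: 4 of 11 replication genes, 1 of 3 genes of nucleotide supply, 6 of 14 genes of mitotic entry, checkpoint and anaphase, 4 of 7 spindle and chromosome genes, 1 of 5 G1 genes and 2 of 4 inhibitors. Their changes lay between 0.38 (Tk1) and 0.96 (Cks2) on the log2 scale. The median over the 44 genes was 0.39, with a range of -0.19 to 0.96, beside a median of 0.01 over all tested probe sets. The filter bears on these counts: 10 of the 44 genes exceeded the 40th percentile on fewer than 3 sham arrays and were tested only because IR arrays did. They include Racgap1, Prim1, Kif22, Mcm4 and Cdkn3, which rose. With no filter, 16 of 48 genes rose in the average. The list was chosen with earlier results of these data known. Its share beside that of all probe sets is therefore no independent test. Of 65 other tested cell cycle genes, in a wider list described below, 3 rose and 2 fell in the average.

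At 7 d, 3 of the 44 genes rose and 0 fell (limma), where 6.22% of all probe sets rose and 5.85% fell. At an unadjusted p under 0.05 there were 8 genes, where 28.0% of all probe sets passed. The 3 that rose were Racgap1, Cdkn2c and Cks2. At 2 d, 3 others (Mcm2, Cdca3 and Kif22) rose and 0 fell, where 1.88% of all probe sets rose and 0.589% fell. At an unadjusted p under 0.05 there were 24 genes, where 21.5% of all probe sets passed. The median change over the 44 genes was 0.24 at 7 d and 0.47 at 2 d, against 0.01 and 0.00 over all probe sets. The 3 IR rats lay above the 3 sham rats of the day for 4 genes at 7 d, where this held for 16.6% of all probe sets, and for 23 genes at 2 d, where it held for 13.9%. Both days' changes were positive for 31 genes, and 9 genes had a positive change at 2 d and a negative one at 7 d.

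Rats 69 and 82 stood apart from the others of their groups. On the first principal component of all tested probe sets, whose sign is arbitrary, 2 d IR rat 69 lay at -18.3, against 4.11 and -0.18 for rats 73 and 76, and 7 d sham rat 82 at 23.6, against 1.06 and 1.14 for rats 80 and 81. The single-day counts changed when single rats were left out. At 2 d the number of genes that rose was 0 without IR rat 69, without sham rat 71 or without sham rat 72, 1 without sham rat 74, 11 without IR rat 73 and 6 without the 7 d sham rat 82. At 7 d it was 0 without IR rat 47 or without sham rat 82, 1 without IR rat 44 or without sham rat 80, and 6 without sham rat 81. The average over both days gave 11 to 21 genes when any 1 rat was left out, with 11 without IR rat 44, and 3 (Racgap1, Prim1 and Ube2c) when rats 69 and 82 were left out together. The average calls of Cdca3, Cks2, Kif22, Lmnb1, Stmn1, Cdkn2c and Cdkn3 were lost in that last setting alone.

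**Figure D2:**
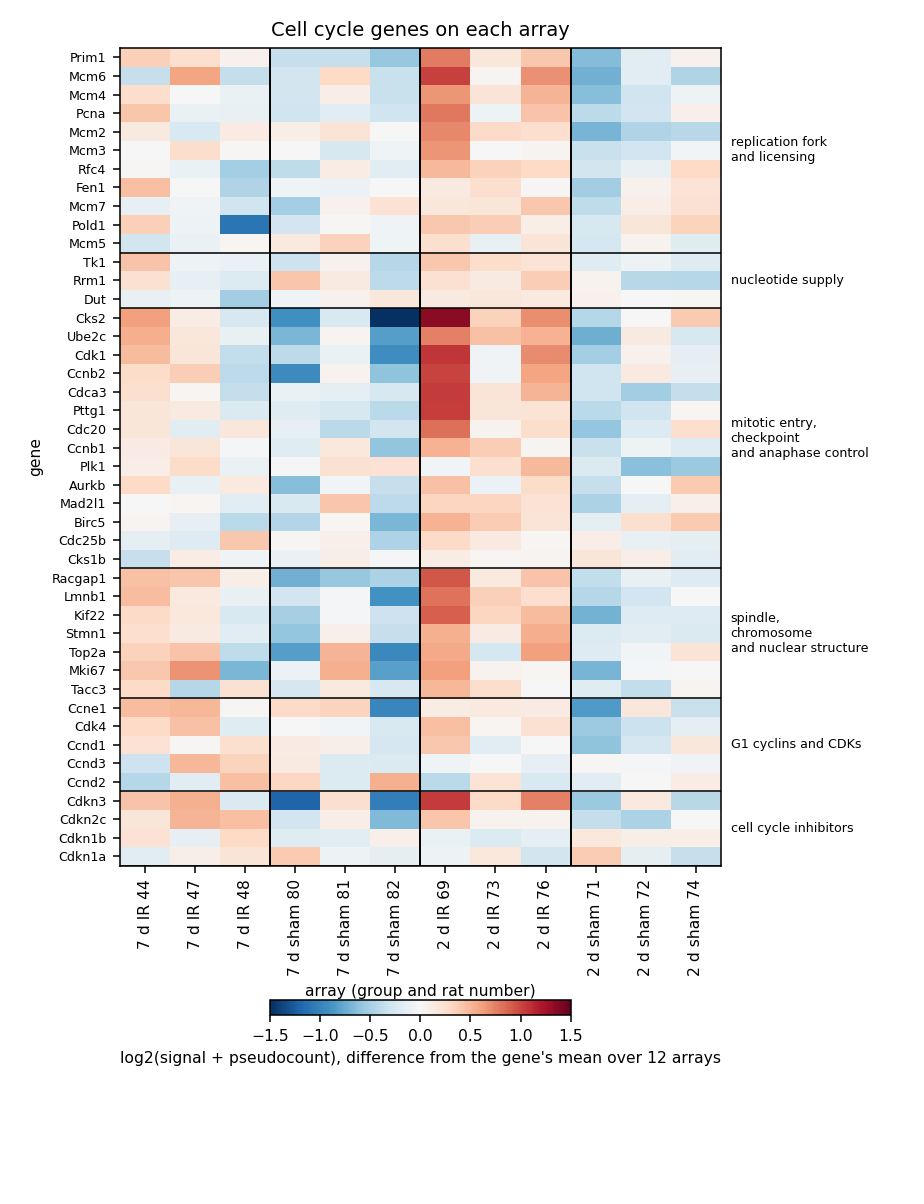
Each row is 1 of the 44 tested genes, grouped by class, and each column 1 array; colour gives log2(signal + 195) minus the gene's mean over the 12 arrays, on a scale that ends at -1.5 and 1.5. Rat 69 of the 2 d IR group is the reddest column (highest of its group for 33 of 44 genes), while rats 71 (2 d sham) and 82 (7 d sham) are lowest of their groups for 31 and 26 genes, and rat 48 (7 d IR) is lowest of its group for 30.

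Of the 11 replication genes, Mcm2 rose at 2 d and none at 7 d, and 4 rose in the average of both days (Mcm2, Mcm4, Prim1 and Pcna). All 11 had a positive change at 2 d (median 0.45), whereas 6 were positive and 5 negative at 7 d (median 0.05). The minichromosome maintenance proteins Mcm2 to Mcm7 form the ring-shaped helicase that is loaded on origins in G1. Mcm2 had signals of 1448, 1019 and 994 in 2 d IR rats 69, 73 and 76, against 419, 533 and 554 in 2 d sham rats 71, 72 and 74. Every IR rat lay above every sham rat, and Mcm2 rose 1.92-fold (log2 change 0.94, SE 0.16, adjusted p = 0.0166). That call was lost without rat 69, 71 or 72. Mcm2 also rose in the average (log2 change 0.43, SE 0.12, adjusted p = 0.0176), a call lost without rat 69. At 7 d the Mcm2 signals were 899, 653 and 888 in IR rats 44, 47 and 48, against 861, 949 and 803 in sham rats 80, 81 and 82. The 7 d groups overlapped, with a change of -0.09 (SE 0.16, adjusted p = 0.77).

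Mcm6 had the largest 2 d change among the 44 tested genes in this fit and did not pass the test. Its signals were 1414, 614 and 1074 in 2 d IR rats, against 284, 509 and 380.4 in 2 d sham rats (log2 change 1.03, SE 0.29, adjusted p = 0.0703). Rat 69 was the highest of the IR rats and rat 73 the lowest. At 7 d the signals were 427, 993 and 418 in IR rats, against 454, 776 and 429 in sham rats, where 1 rat of each group stood well above the other 2. Mcm4 changed by 0.79 (SE 0.20, adjusted p = 0.0516) at 2 d and rose in the average of both days (log2 change 0.51, SE 0.14, adjusted p = 0.0204), a call lost without rat 69, 44 or 71. Mcm3 changed by 0.45 (SE 0.18) at 2 d without a call. The changes of Mcm5 and Mcm7 were -0.25 (SE 0.15) and -0.08 (SE 0.19) at 7 d and 0.24 (SE 0.15) and 0.27 (SE 0.19) at 2 d, with no call.

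Prim1, the catalytic subunit of the primase that lays down the RNA primers of DNA synthesis, was the replication gene with similar changes on both days. Its signals were 779, 709 and 602 in 7 d IR rats, against 402, 404 and 319.7 in 7 d sham rats. At 2 d they were 1115, 659 and 813 in IR rats, against 290.3, 482 and 598 in sham rats. The IR rats lay above the sham rats on both days, and Prim1 rose in the average (log2 change 0.67, SE 0.15, adjusted p = 0.00584). Pcna, the sliding clamp that holds DNA polymerases on their template, had signals of 5301, 3639.7 and 3598 in 7 d IR rats, against 3148, 3494 and 3141 in 7 d sham rats. At 2 d its signals were 6919, 3683 and 5333 in IR rats, against 2924, 3171 and 4138 in sham rats. Pcna rose in the average (log2 change 0.45, SE 0.14, adjusted p = 0.0358). Without rat 69, 76, 44, 71, 72, 80 or 82 that call was lost. The clamp loader Rfc4, the polymerase subunit Pold1 and the flap nuclease Fen1 had changes of -0.05, -0.16 and 0.05 at 7 d and 0.41, 0.20 and 0.22 at 2 d, with no call on either day or in the average.

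**Figure D3:**
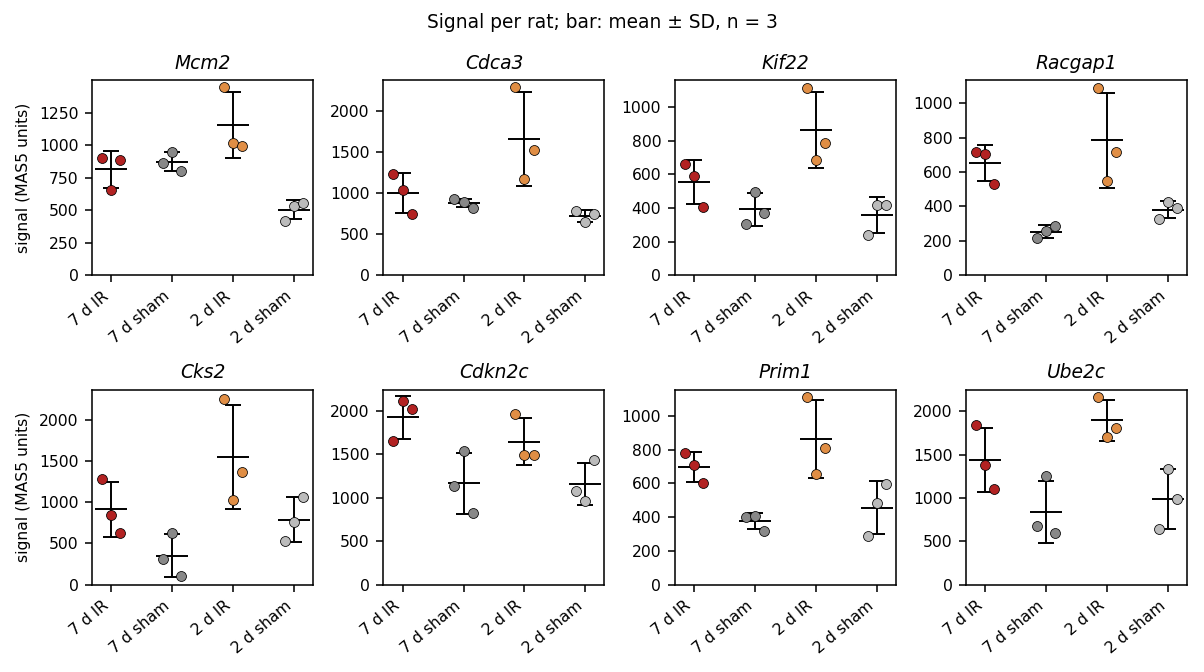
MAS5 signal (vertical axis, linear, from 0) of 8 genes in each rat, with bars for the mean ± SD of 3 rats, for 7 d IR, 7 d sham, 2 d IR and 2 d sham. The 2 d IR rats lie above the 2 d sham rats for Mcm2, Cdca3, Kif22, Racgap1, Cdkn2c, Prim1 and Ube2c, and the 7 d IR rats above the 7 d sham rats for Racgap1, Cdkn2c and Prim1.

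Of the enzymes that supply deoxynucleotides, Tk1, the thymidine kinase of S phase, rose in the average of both days (log2 change 0.38, SE 0.12, adjusted p = 0.0308), a call lost without rat 69, 44, 71, 74, 80 or 82. Rrm1, the large subunit of ribonucleotide reductase, changed by -0.09 (SE 0.20) at 7 d and 0.50 (SE 0.20) at 2 d, with no call. Dut hydrolyses dUTP and so keeps uracil out of DNA. Its signals at 7 d were 3346, 3421 and 2462 in IR rats, against 3483, 3799 and 4111 in sham rats, and every IR rat was below every sham rat, an order that 15.8% of all probe sets had. At 2 d they were 4003, 4102 and 4035 in IR rats, against 3796, 3639 and 3689 in sham rats. Every 2 d IR rat was above every 2 d sham rat, an order that 13.9% of all probe sets had. The change was -0.30 (SE 0.13, adjusted p = 0.141) at 7 d and 0.12 (SE 0.13, adjusted p = 0.641) at 2 d, and neither passed.

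Among the genes of mitotic entry, checkpoint and anaphase, Cks2 rose at 7 d, Cdca3 rose at 2 d, and 6 rose in the average of both days (Cks2, Ube2c, Cdk1, Cdca3, Pttg1 and Ccnb1). All 14 had a positive change at 2 d (median 0.58), and 12 of 14 at 7 d (median 0.30). Cdca3 works in the destruction of the Cdk1 inhibitor Wee1 and so favours entry into mitosis. It had signals of 2294, 1176 and 1522 in 2 d IR rats, against 783, 643 and 748 in 2 d sham rats, and rose 1.96-fold (log2 change 0.97, SE 0.20, adjusted p = 0.0285). The call was lost without rat 69, 71, 72 or 74. Cdca3 also rose in the average (log2 change 0.55, SE 0.14, adjusted p = 0.0121). At 7 d the signals were 1232, 1036 and 744 in IR rats, against 927, 892 and 824 in sham rats, overlapping, with a change of 0.14 (SE 0.20).

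Cks2, the small subunit that binds Cdk1, was the mitotic gene that rose at 7 d. Its signals were 1282, 850.1 and 621 in 7 d IR rats, against 315, 629 and 105 in 7 d sham rats, overlapping between IR rat 48 and sham rat 81 (log2 change 1.11, SE 0.34, adjusted p = 0.0492). Sham rat 82 was the lowest of all 12, and without it, as without rat 44, 47, 80, 71, 72, 74 or 76, the 7 d call was lost. At 2 d the signals were 2262, 1028 and 1366 in IR rats, against 524, 767 and 1070.0 in sham rats, with IR rat 73 below sham rat 74. Cks2 also rose in the average (log2 change 0.96, SE 0.24, adjusted p = 0.0124). Cks1b, its near relative, changed by -0.09 (SE 0.14) at 7 d and 0.02 (SE 0.14) at 2 d, and its IR and sham rats overlapped on both days.

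Ube2c carries the ubiquitin that the anaphase-promoting complex puts on cyclin B and securin. Its signals were 1838, 1376 and 1097 in 7 d IR rats, against 672, 1250.0 and 596 in 7 d sham rats. At 2 d they were 2165, 1704 and 1812 in IR rats, against 646, 1338 and 990.0 in sham rats. The 2 d groups did not overlap and the 7 d groups did, and Ube2c rose in the average (log2 change 0.77, SE 0.17, adjusted p = 0.00686). Cdk1, the kinase that drives mitosis, rose in the average (log2 change 0.67, SE 0.21, adjusted p = 0.0294), with single-day changes of 0.57 (SE 0.29) at 7 d and 0.77 (SE 0.29) at 2 d that did not pass; the average was not called without rat 69, 76, 44, 47, 71 or 82. Its partner Ccnb1 rose in the average (log2 change 0.40, SE 0.13, adjusted p = 0.0379), a call lost without rat 69, 73, 44, 47, 71, 74, 80 or 82, while a dimmer probe set of Ccnb1 gave 0.71 (SE 0.20, adjusted p = 0.0194). Pttg1 (securin), the inhibitor of the protease that opens sister chromatids, rose as well (log2 change 0.50, SE 0.15, adjusted p = 0.0227), a call lost without rat 44, 71, 72 or 82.

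Plk1, a kinase of spindle assembly and mitotic entry, had signals of 705, 899 and 1103 in 2 d IR rats, against 599, 405 and 432 in 2 d sham rats. The groups did not overlap, and the adjusted p lay just above the threshold (log2 change 0.70, SE 0.18, adjusted p = 0.0503). At 7 d it had 794, 925 and 668 in IR rats, against 707, 888 and 876 in sham rats, with a change of -0.04 (SE 0.18). Ccnb2 and Cdc20, the second B cyclin and the activator of the anaphase-promoting complex, came near the threshold in the average, at 0.60 (SE 0.21, adjusted p = 0.0507) and 0.44 (SE 0.16, adjusted p = 0.055). The mean signals of Cdc20 were 881 in 7 d IR against 659 in 7 d sham rats, and 1175 in 2 d IR against 738 in 2 d sham rats. A second tested probe set of Cdc20 had 636 against 590 at 7 d and 1084 against 564 at 2 d. The chromosomal passenger proteins Aurkb and Birc5 had average changes of 0.32 (SE 0.18) and 0.20 (SE 0.16), the checkpoint protein Mad2l1 0.25 (SE 0.16) and the phosphatase Cdc25b 0.17 (SE 0.13), with no call on any day.

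**Figure D4:**
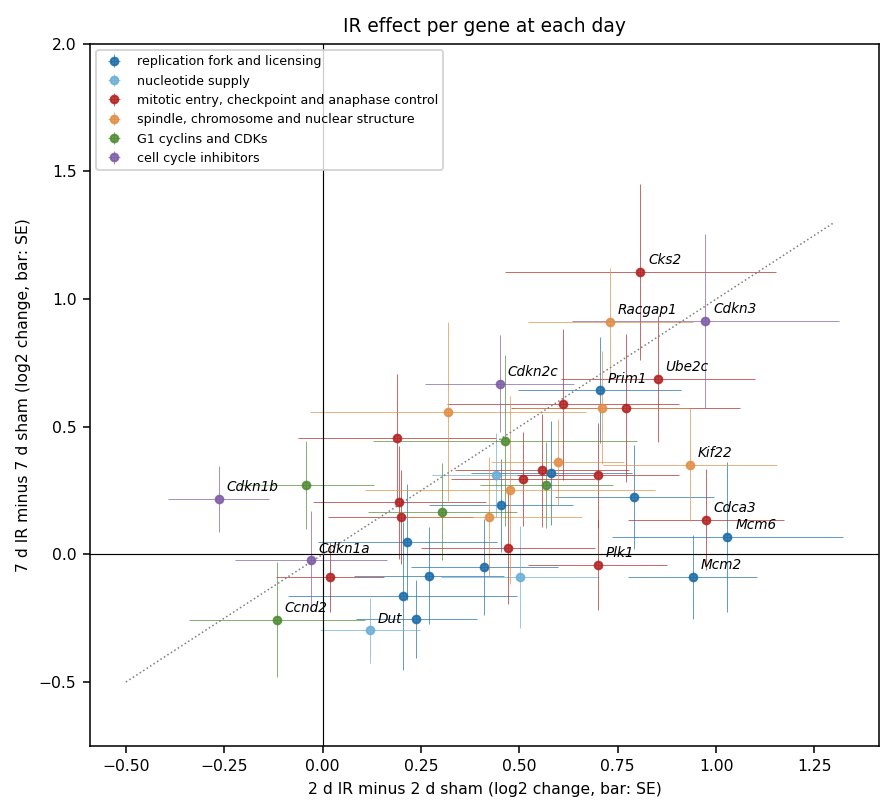
IR minus sham on the log2(signal + 195) scale at 7 d (vertical) against 2 d (horizontal) for the 44 tested genes, coloured by class, with bars of 1 SE; the dotted line marks equal changes. Mcm2, Mcm6, Cdca3 and Plk1 lie far right and near 0 on the vertical axis, while Racgap1, Cks2 and Cdkn3 lie high on both axes.

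Racgap1 rose at 7 d and Kif22 at 2 d among the 7 spindle, chromosome and nuclear structure genes, and Racgap1, Kif22, Lmnb1 and Stmn1 rose in the average of both days. All 7 had positive changes on both days, with a median of 0.36 at 7 d and 0.60 at 2 d. Racgap1, the GTPase-activating protein of the centralspindlin complex that positions the cleavage furrow, had signals of 718, 705 and 528 in 7 d IR rats, against 213, 258 and 288 in 7 d sham rats. At 2 d it had 1089, 548 and 714 in IR rats, against 325, 426 and 392 in sham rats. The IR rats stood above the sham rats on both days. Racgap1 rose 1.88-fold at 7 d (log2 change 0.91, SE 0.21, adjusted p = 0.0154) and in the average (log2 change 0.82, SE 0.15, adjusted p = 0.0026), and the 2 d change alone did not pass (0.73, SE 0.21, adjusted p = 0.0703). The 7 d call was lost without rat 44, 47 or 82, while the average passed under every alternative run, no filter included. Racgap1 exceeded the 40th percentile on all 6 IR arrays and on 0 sham arrays, so that it entered the test only through the IR groups, where it is high.

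Kif22, a kinesin that pushes chromosomes away from the spindle poles, had signals of 1117, 688 and 786 in 2 d IR rats, against 237, 420.5 and 418 in 2 d sham rats, and rose 1.91-fold (log2 change 0.93, SE 0.22, adjusted p = 0.0431). The call was lost without rat 69, 76, 71, 72, 74 or 47. Kif22 also rose in the average (log2 change 0.64, SE 0.16, adjusted p = 0.0102). At 7 d the signals were 664, 592 and 407 in IR rats, against 304, 497 and 372 in sham rats, overlapping (0.35, SE 0.22). Lmnb1, the lamin B1 of the nuclear envelope, and Stmn1, which destabilises microtubules, rose in the average (log2 change 0.64, SE 0.16, adjusted p = 0.0104 for Lmnb1, and log2 change 0.48, SE 0.12, adjusted p = 0.0114 for Stmn1).

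The usual markers of dividing cells in tissue, Mki67 and Top2a, were not called. Mki67 had 707, 899 and 229 in 7 d IR rats, against 449, 794 and 193 in 7 d sham rats, and 854, 516 and 504 in 2 d IR rats, against 226, 483 and 484 in 2 d sham rats. The spread among the 7 d rats exceeded the difference between the 7 d groups (0.25, SE 0.37), and the 2 d change was 0.48 (SE 0.37). Top2a, the topoisomerase that untangles sister chromatids, had 755, 810.4 and 376 in 7 d IR rats, against 226, 864 and 187 in 7 d sham rats, with sham rat 81 the highest of the 6. Its average change was 0.44 (SE 0.25, adjusted p = 0.227), while a dimmer probe set of Top2a rose (0.62, SE 0.19, adjusted p = 0.0262), so that the 2 probe sets disagree on the call. Tacc3, a spindle protein of the kinetochore fibres, changed by 0.28 (SE 0.17) in the average, with no call.

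Of the 5 tested G1 genes, 1 rose in the average of both days. Cdk4, the kinase that D cyclins activate, had signals of 4215, 4678 and 2965 in 7 d IR rats, against 3396, 3303 and 2868 in 7 d sham rats, and 4726, 3459 and 3997 in 2 d IR rats, against 2265, 2679 and 3072 in 2 d sham rats. It rose in the average (log2 change 0.42, SE 0.12, adjusted p = 0.0211), a call lost without rat 69, 44, 47, 71 or 82. The changes of its partners Ccnd1, Ccnd2 and Ccnd3 were 0.17 (SE 0.19), -0.26 (SE 0.22) and 0.27 (SE 0.17) at 7 d. At 2 d they were 0.30 (SE 0.19), -0.12 (SE 0.22) and -0.04 (SE 0.17), and IR and sham rats overlapped for each on both days. A second probe set of Ccnd1 passed in the average (0.38, SE 0.13, adjusted p = 0.0442), whereas the brightest did not (0.24, SE 0.13, adjusted p = 0.226). Ccne1, the cyclin of the step into S phase, was dim, at 87.7 to 592 over the 12 rats, and changed by 0.45 (SE 0.24) in the average.

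Of the 4 inhibitors, Cdkn2c and Cdkn3 rose in the average of both days. Cdkn2c (p18) binds Cdk4 and Cdk6 and blocks their activation by D cyclins. Its signals were 1648, 2118 and 2021 in 7 d IR rats, against 1136, 1535 and 829 in 7 d sham rats, with no overlap, and it rose 1.59-fold (log2 change 0.67, SE 0.19, adjusted p = 0.0356). The 7 d call was lost without rat 44, 47, 48, 80 or 82. At 2 d the signals were 1962, 1489 and 1489 in IR rats, against 1074, 967 and 1433 in sham rats, and the average passed (log2 change 0.56, SE 0.13, adjusted p = 0.00942). Cdkn3, a phosphatase that removes the activating phosphate of Cdk1 and Cdk2, had 843, 928 and 472 in 7 d IR rats, against 140.4, 716 and 183 in 7 d sham rats, and 1399.9, 752 and 1109.6 in 2 d IR rats, against 329, 662 and 384 in 2 d sham rats. It rose in the average (log2 change 0.94, SE 0.24, adjusted p = 0.0127).

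Cdkn1a (p21) and Cdkn1b (p27), which bind and block Cdk2 complexes, were not called. Cdkn1a had 2137, 2598 and 2817 in 7 d IR rats, against 3265, 2294 and 2198 in 7 d sham rats, and 2303, 2745 and 1987 in 2 d IR rats, against 3234, 2195 and 1883 in 2 d sham rats. Both days' groups overlapped, with changes of -0.02 (SE 0.19) and -0.03 (SE 0.19). A dimmer tested probe set of Cdkn1a differed in direction, and its groups also overlapped on both days. Its mean signal was 1257 in 7 d IR rats against 1166 in 7 d sham rats, and 1450 in 2 d IR rats against 1030 in 2 d sham rats. Cdkn1b had 3075, 2389 and 3279 in 7 d IR rats, against 2292, 2326 and 2779 in 7 d sham rats, which overlapped. At 2 d it had 2436, 2265 and 2351 in IR rats, against 2958, 2800.0 and 2827 in sham rats. Every 2 d IR rat was below every 2 d sham rat, the only gene of the 44 with that order at 2 d, where it held for 12.5% of all probe sets, and the change did not pass (-0.26, SE 0.13, adjusted p = 0.255). A dim probe set of Cdkn1b, not tested, differed in direction at 2 d. Its mean signal was 322 in 2 d IR rats against 223 in 2 d sham rats, and the rats overlapped.

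The difference between the days was tested directly. For none of the 44 genes did the IR effect at 7 d minus that at 2 d pass the test (limma, 0 at an adjusted p under 0.05 and 7 at an unadjusted p under 0.05), where 0.0095% of all probe sets passed, and 7.14% at the unadjusted p. The 7 d effect minus the 2 d effect was negative for 35 of 44 genes, with a median of -0.21 beside -0.01 over all probe sets, and negative for all 11 replication genes. Mcm2 had the lowest adjusted p (log2 change -1.03, SE 0.23, adjusted p = 0.299; unadjusted p = 0.000523). Both sides contributed to its value: Mcm2 was -0.41 (SE 0.16) in 7 d IR minus 2 d IR, and 0.62 (SE 0.16) in 7 d sham minus 2 d sham. For Plk1 the value came mostly from the sham groups, with -0.14 (SE 0.18) between the IR groups and 0.60 (SE 0.18) between the sham groups. For Cdca3 the IR groups differed by -0.61 (SE 0.20) and the sham groups by 0.23 (SE 0.20).

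In IR ventricles alone, 0 of 44 genes passed between 7 d and 2 d (limma, 9 at an unadjusted p under 0.05), where 3.45% of all probe sets did, and 16.4% at the unadjusted p. The change was negative for 37 of 44 genes, among them all 11 replication, all 14 mitotic and all 7 spindle genes, with medians of -0.40, -0.35 and -0.22. The 3 rats of 7 d IR lay below the 3 of 2 d IR for 8 genes, where this held for 9.91% of all probe sets. Rfc4 had the lowest adjusted p, with 809.9, 729 and 503 in 7 d IR rats, against 1201, 1065 and 1029 in 2 d IR rats (log2 change -0.58, SE 0.19, adjusted p = 0.115). In sham ventricles, 0 of 44 passed between 7 d and 2 d (4 at an unadjusted p under 0.05), where 0.076% of all probe sets did, and 9.42% at the unadjusted p, with a median change of -0.05.

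**Figure D5:**
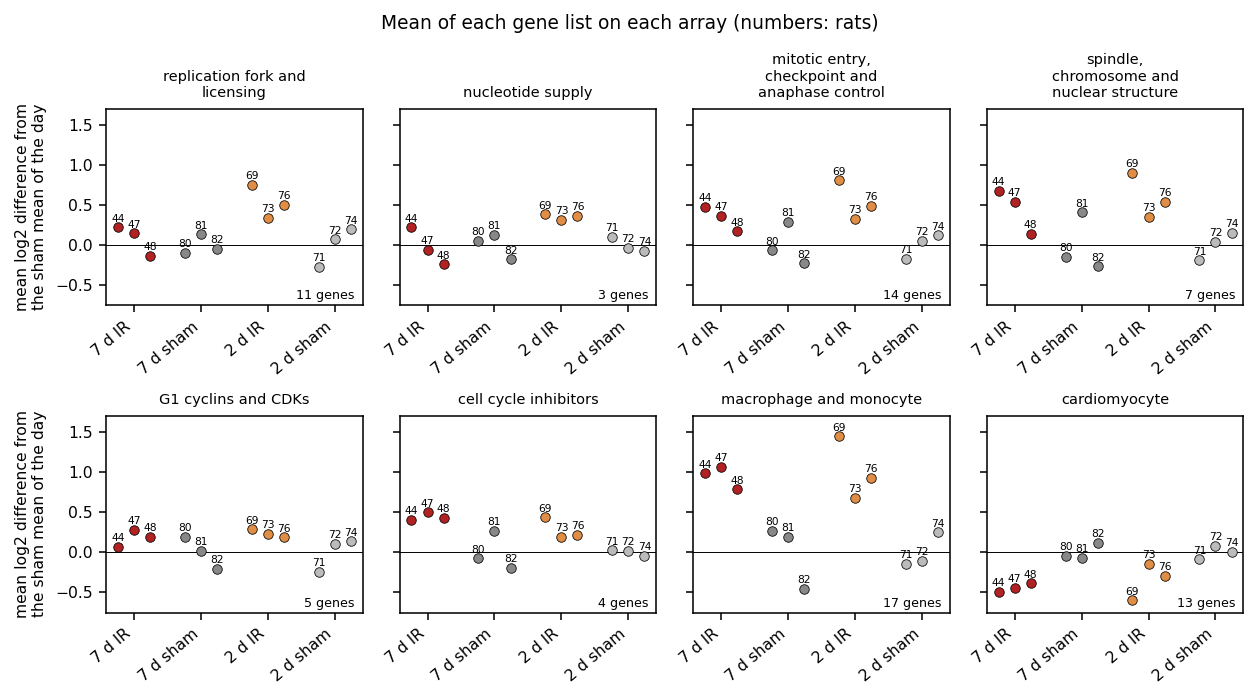
Mean over the genes of each list of log2(signal + 195) minus the sham mean of the same day, 1 point per rat (rat numbers beside the points), for the 6 classes and for macrophage and cardiomyocyte markers. Rat 69 is highest among the 2 d IR rats for the replication, mitotic, spindle and macrophage lists and lowest for the cardiomyocyte list, and among the 7 d IR rats rat 48 is lowest for the replication, mitotic and spindle lists.

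The rats of a group differed among themselves. Averaged over the 44 genes, the difference from the sham mean of the day was 0.37, 0.31 and 0.09 for 7 d IR rats 44, 47 and 48, against -0.05, 0.23 and -0.18 for 7 d sham rats 80, 81 and 82, so that sham rat 81 stood above IR rat 48. It was 0.69, 0.31 and 0.43 for 2 d IR rats 69, 73 and 76, against -0.17, 0.05 and 0.12 for 2 d sham rats 71, 72 and 74, with no overlap.

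Markers of some other cell types also differed between IR and sham rats. Of 17 tested macrophage and monocyte markers (20 listed), 13 rose at 7 d and 11 at 2 d, and their summed signals were 126543 to 142871 in 7 d IR rats, against 49606 to 85239 in 7 d sham rats, and 114304 to 176731 in 2 d IR rats, against 51157 to 73578 in 2 d sham rats. Rat 69 was the highest 2 d IR rat for these markers too, at 1.45 above the sham mean, against 0.68 for rat 73 and 0.93 for rat 76. Of 12 tested fibroblast markers (12 listed), 7 rose at 7 d and 1 at 2 d. Their summed signals were 243203 to 312601 in 7 d IR rats, against 106780.0 to 187722 in 7 d sham rats. At 2 d they were 106326 to 123310.0 in IR rats, against 87331 to 100993 in sham rats. In 7 d IR minus 2 d IR, all 12 fibroblast markers had a positive change (median 1.33, 10 called). Of all probe sets 3.45% were called there, in either direction. In 7 d sham minus 2 d sham, 11 of 12 fibroblast markers had a positive change (median 0.70, 0 called). The macrophage and monocyte markers had a median of 0.03 in 7 d IR minus 2 d IR, with 10 of 17 positive and 3 called. In that comparison of IR groups, 37 of 44 cell cycle genes had a negative change, with 0 called. Of 13 tested cardiomyocyte markers (14 listed), 7 fell at 7 d and 1 at 2 d, with summed signals of 472266 to 521828 in 7 d IR rats, against 625511 to 714437 in 7 d sham rats, and 488500.0 to 651749 in 2 d IR rats, against 657827 to 744070.0 in 2 d sham rats. The ventricle's defining markers were thus bright in every group, with group means of Tnnt2 (cardiac troponin T) of 48292 to 73537. Other lists had few tested markers. In the average of both days 2 of 2 neutrophil, 2 of 8 smooth muscle and pericyte, 1 of 4 lymphocyte and 1 of 8 endothelial markers rose. In the same comparison 2 of 4 atrial markers fell. Over all tested probe sets 12.4% rose and 10.5% fell. The median change of the atrial markers was -0.67 at 7 d and -0.57 at 2 d. Of 4 tested markers of red blood cell precursors and 1 of mast cells, 0 passed in the average (limma, 0 at an unadjusted p under 0.05). The 3′ to 5′ signal ratio of beta-actin, a measure of RNA integrity, was 0.18 ± 0.06 in 7 d IR rats and 0.58 ± 0.23 in 7 d sham rats on the log2 scale (SD, n = 3 each, exact permutation p = 0.1, the smallest that 3 against 3 can give), and 0.24 ± 0.07 in 2 d IR rats and 0.20 ± 0.10 in 2 d sham rats (exact permutation p = 0.8). The same ratio of GAPDH was 0.32 in 7 d IR rats and 0.39 in 7 d sham rats (exact permutation p = 0.2). That of hexokinase was 0.82 in 7 d IR rats and 0.95 in 7 d sham rats (exact permutation p = 0.6). At 2 d the exact permutation p was 0.6 for GAPDH and 0.8 for hexokinase. The part of cell makeup and RNA quality in the changes of the cell cycle genes was not tested.

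A wider list of 141 other cell cycle genes held 65 that were tested. At 7 d 1 of them rose and 2 fell, and at 2 d 0 passed (limma, 9 at an unadjusted p under 0.05), with medians of 0.03 at 7 d and 0.09 at 2 d. In the average, 3 rose and 2 fell. These counts lie below the shares of all probe sets, which at 7 d were 6.22% higher and 5.85% lower, in the average 12.4% higher and 10.5% lower, and at the unadjusted p at 2 d 21.5%. Lig1, the ligase that joins Okazaki fragments, rose in the average (log2 change 0.58, SE 0.17, adjusted p = 0.0207), as did Rfc3, another subunit of the clamp loader (log2 change 0.41, SE 0.14, adjusted p = 0.0463), and Ccnc, the cyclin of the Mediator kinase module (log2 change 0.37, SE 0.12, adjusted p = 0.0364). E2f6, an E2F factor that represses its targets without binding the retinoblastoma protein, fell at 7 d (log2 change -0.61, SE 0.15, adjusted p = 0.0196) and in the average (log2 change -0.47, SE 0.11, adjusted p = 0.00716). Its signals were 4985, 5152 and 5669 in 7 d IR rats, against 8242, 7093 and 9284 in 7 d sham rats, and 6224, 8935 and 7664 in 2 d IR rats, against 11283, 8502 and 8745 in 2 d sham rats. Pole4, a small subunit of DNA polymerase epsilon, also fell at 7 d (log2 change -0.48, SE 0.12, adjusted p = 0.0232) and in the average (log2 change -0.29, SE 0.09, adjusted p = 0.025). Among the regulators of the programme, E2f4, E2f5, Rb1, Rbl2, Tfdp1, Mybl2 and Myc were not called on either day. Uncalled does not mean level: Myc had 1260, 380 and 562 in 2 d IR rats, against 171, 347 and 332 in 2 d sham rats. Those groups did not overlap, an order that 13.9% of all probe sets had, and the 7 d groups overlapped.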

How the data were processed

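The authors deposited a linear intensity for each probe set, made with MAS5 per the submitters' processing notes. They ran from 0.4 to 90742.8, with each array's mean at 1500.4 to 1500.5 after leaving out 2% at each end. The pseudocount of 195 is the median over arrays of the 20th percentile. After 57 controls were left out, 10527 of 15866 probe sets exceeded the 40th percentile of their array on at least 3 arrays and were tested. A model of 4 group means over the 12 arrays used limma 3.58.1 (R 4.3.3), with eBayes and an intensity trend, and two-sided p-values were adjusted by Benjamini-Hochberg in each of 6 comparisons. The fit was tested on simulated data. P-values measure the spread between these 12 rats, and the number of arrays limits the precision.

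Symbols came from the platform annotation (12789 probe sets with 1 symbol, 312 with several, 2822 unnamed here). All 48 matched genes were found in RefSeq's table. Because the design text lists 7 d sham in 2 places, groups follow the sample titles. The genes and lists were chosen with earlier results of these data known. Every gene on the list was named. Of the wider list, genes that passed were named, with up to 5 in a comparison, and the regulators named beside them as not called were chosen after their values were seen. Alternatives were other pseudocounts, filters and scalings, no intensity trend, the mean over probe sets, arrays of 1 day, and leaving out each rat.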

Additional observations from a re-analysis of the deposited data

Results flagged for a closer look

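Of the 4 genes too dim to be tested, Kif20a and Tyms had the 2 d IR rats wholly above the 2 d shams. Among tested probe sets 13.9% had that order at 2 d. Kif2c had the 7 d IR rats wholly above the 7 d shams, as 16.6% of tested probe sets did. These genes were picked out by this order, so the order itself is no result about them. Kif20a, a kinesin of the cleavage furrow, had signals of 899.8, 358 and 675 in 2 d IR rats (mean 644), against 106, 164 and 67.3 in 2 d sham rats. With no filter on low signal it changed by 1.40 at 2 d (SE 0.35, adjusted p = 0.0805) and rose in the average of both days (1.10, adjusted p = 0.0119). Tyms, the thymidylate synthase that makes dTMP, had 228, 144 and 142 in 2 d IR rats (mean 171), against 75.5, 33.1 and 19.4 in 2 d sham rats. With no filter it rose in the average (0.48, adjusted p = 0.0175). Kif2c, a kinesin that takes microtubules apart at the centromere, had 478, 376 and 252.7 in 7 d IR rats (mean 369), against 251.6, 224 and 82.7 in 7 d sham rats, so that the groups are parted by little more than 1 unit of signal. With no filter its 7 d change was 0.58 (adjusted p = 0.235).

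Dut was the tested gene whose IR rats lay wholly below the shams on 1 day and wholly above them on the other. Every 7 d IR rat was below the 7 d sham rats, an order that 15.8% of all probe sets had. Every 2 d IR rat was above the 2 d sham rats, as for 13.9% of all probe sets. The share with both orders was not counted, and the rats of the days are different animals. The 7 d effect minus the 2 d effect was -0.42 (SE 0.18, adjusted p = 0.642) and did not pass.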

How the results depend on the processing

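Of the 24 calls among the 44 tested genes, none turned in direction under any alternative. The calls of the wider list and of second probe sets were not followed through the alternatives. No paired analysis was possible because the groups share no replicate numbers. The genes that rose at 7 d numbered 1 with no filter on dim probe sets, 1 with no intensity trend, 1 with arrays of that day only, 1 without rats 69 and 82 together, and 0 to 6 with each rat left out. At 2 d they numbered 1, 1, 5 and 0 in the same 4 settings, and 0 to 11 with each rat left out. The average of both days gave 3 without rats 69 and 82 together and 11 to 21 with each rat left out. The differences between days gave 0 genes in each alternative. The Racgap1, Prim1 and Ube2c averages passed in every alternative. Mcm2 at 2 d passed in 18 of 22, Cdca3 at 2 d in 15 of 22 and Kif22 at 2 d in 11 of 21. Racgap1 at 7 d passed in 19 of 22, Cdkn2c at 7 d in 13 of 22 and Cks2 at 7 d in 7 of 22. Calls were lost to processing as well as to single rats. Of 24 calls, 20 were kept with median centring of arrays and 20 with quantile normalization. With no filter 16 were kept, and with no intensity trend 19. Over all probe sets, the calls at 2 d, 260 in the fit reported, numbered 77 with no filter, 68 with no intensity trend and 2 without rat 69, 71 or 72. The cause of these differences was not tested. Of the 44 tested genes, 24 exceeded the 40th percentile on all 12 arrays and 7 on 6 or fewer, among them Aurkb and Ccne1 on 3 each.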
